A study of Homo sapiens with 2 samples.

Results

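Chromatin accessibility was examined at 9 genes of the definitive and primitive endoderm, FOXA1, FOXA2, HNF4A, HHEX, CER1, PDGFRA, CXCR4, EOMES and MIXL1, of 19970 protein-coding genes in the gene table. A region belonged to a gene when the summit of at least 1 of its peaks lay inside the gene body or within 50 kb of it. This gave 134 of 250859 hTBLC regions and 114 of 242009 primed regions. The genes were not selected by a threshold on these libraries, but they were chosen with earlier results of these data known. The libraries were made by ATAC-seq, which marks accessible DNA because the Tn5 transposase cuts and tags it more readily than packed DNA. One library came from hTBLCs, a totipotent-like state that the study's title ties to spliceosomal repression, and 1 from primed cells. Both states came from WIBR3, a line of human embryonic stem cells, and the labels name no agent, dose or time for hTBLC.

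Endoderm forms in the mammalian embryo on separate occasions. The primitive endoderm arises beside the epiblast in the blastocyst and gives rise to yolk sac, and the definitive endoderm arises later through the primitive streak under NODAL signalling and forms gut, liver and pancreas. EOMES and MIXL1 are transcription factors of the streak, CER1 and HHEX mark its anterior endoderm, FOXA1 and FOXA2 are forkhead factors that bind nucleosomal DNA, HNF4A is a nuclear receptor of visceral endoderm and liver, and PDGFRA and CXCR4 are cell surface receptors used as markers of primitive and definitive endoderm. Human embryonic stem cells are a common source for making definitive endoderm in culture.

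Each state had 1 library, so differences between them carry no replicate check and were not tested. Signal is given as the summit pileup, the number of reads or fragments stacked at the highest point of a peak, solved from the authors' fold enrichment and p-value. Ratios of hTBLC to primed pileups were divided by 1.09, the ratio of the lowest background in the lists, 1.96 in hTBLC and 1.79 in primed, and carry exact 95% intervals for counting error only. With the scaling, all matched regions within 50 kb of protein-coding genes had a median log2 ratio of −0.13, against 0.00 without it. The stem cell genes with a start in the table, SOX2, NANOG, DPPA4, LIN28B, DNMT3B and ZIC2, all had a region within 1 kb of it in both libraries. Of markers of other cell types with a start, ALB and AFP (hepatocyte), CGA (trophoblast) and ZSCAN4, LEUTX and DUXA (8-cell stage) had none in either library, and GATA3 and TFAP2A (trophoblast), CDX2 (gut) and TWIST2 (fibroblast) had one in both. The start of POSTN (fibroblast) held a region, of pileup 14, in hTBLC alone, and that of KLF17 (8-cell stage) a region, of pileup 12, in primed alone. Some marker starts differed in signal. GATA3 had 112 in hTBLC and 67 in primed, a ratio of 1.53 (1.12 to 2.10). SOX2 had 85 and 116, a ratio of 0.67 (0.50 to 0.89), and NANOG had 21 and 35, a ratio of 0.55 (0.30 to 0.97). The other stem cell genes with a start, DPPA4, LIN28B, DNMT3B and ZIC2, went the other way, with ratios above 1 and intervals that included 1. Among fibroblast genes, the numbers of hTBLC-only and primed-only regions were 9 and 3 at COL3A1 and 5 and 1 at POSTN. The other fibroblast genes listed went the other way, with 2 and 5 at COL1A1 and 4 and 10 at TWIST2. Of 8-cell genes, ZSCAN4 and TPRX1 had 0 and 6, LEUTX 0 and 2, KLF17 6 and 9 and ARGFX 4 and 5. DUXA had 1 and 0. Of stem cell genes, POU5F1 had 4 and 11, SOX2 2 and 8, LIN28B 13 and 22 and DNMT3B 4 and 10. NANOG, DPPA4 and PRDM14 had equal numbers, and ZIC2 had 8 and 5. Of trophoblast genes, GATA3 had 11 and 7, TFAP2A 3 and 10, and KRT7 and CGA equal numbers. Of hepatocyte and gut genes, ALB had 2 and 3, TTR 4 and 3, AFP 4 and 2 and CDX2 6 and 6. The part of other cell types in the values of the 9 genes was not tested. In bulk libraries a smaller share of cells with an open site and a weaker opening in every cell cannot be told apart. A region is called against its local background, so a region found in 1 library alone was not called in the other, whose pileup there is not known. The peak names are numbered, and 327 numbers in the hTBLC list and 252 in the primed list have no line, so a peak under one of them would be missed.

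The sequences before the starts of 5 genes are shown because regions over these bases differed between the libraries. The difference was in extent at PDGFRA, HHEX and FOXA1, in signal at CER1 and at 1 of several summits at MIXL1. That MIXL1 summit, 377 bp before the start in hTBLC, lies outside the bases shown. The MIXL1 summit within them, 27 bp before the start in hTBLC, had 26 in hTBLC and 23 in primed. Its ratio was 1.03 (0.57 to 1.90). The sequences are the 250 bases before a RefSeq start on GRCh38.p14, read along the strand of the gene: chr4:54233710-54233959 on the plus strand for the inner of the 2 PDGFRA starts, chr10:92689705-92689954 on the plus strand for HHEX, chr14:37595250-37595499 on the minus strand for FOXA1, chr9:14722734-14722983 on the minus strand for CER1 and chr1:226223414-226223663 on the plus strand for MIXL1. Capitals mark letters of the motifs described after them.

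PDGFRA: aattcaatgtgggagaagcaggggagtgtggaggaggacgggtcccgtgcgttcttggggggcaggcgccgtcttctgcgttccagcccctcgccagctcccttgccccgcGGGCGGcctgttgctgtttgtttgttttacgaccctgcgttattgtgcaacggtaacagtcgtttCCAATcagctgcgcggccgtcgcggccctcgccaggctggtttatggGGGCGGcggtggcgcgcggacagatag

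HHEX: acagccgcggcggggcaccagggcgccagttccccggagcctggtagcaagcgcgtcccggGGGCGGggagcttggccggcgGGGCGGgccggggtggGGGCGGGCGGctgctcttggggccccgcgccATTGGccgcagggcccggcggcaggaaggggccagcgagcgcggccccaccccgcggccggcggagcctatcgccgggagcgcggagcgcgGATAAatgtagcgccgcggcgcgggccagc

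FOXA1: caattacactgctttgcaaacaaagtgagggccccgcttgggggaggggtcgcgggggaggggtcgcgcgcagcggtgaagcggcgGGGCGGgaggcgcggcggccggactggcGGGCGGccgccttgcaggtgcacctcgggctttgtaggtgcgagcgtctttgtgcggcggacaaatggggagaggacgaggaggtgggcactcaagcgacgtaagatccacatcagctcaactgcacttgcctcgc

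CER1: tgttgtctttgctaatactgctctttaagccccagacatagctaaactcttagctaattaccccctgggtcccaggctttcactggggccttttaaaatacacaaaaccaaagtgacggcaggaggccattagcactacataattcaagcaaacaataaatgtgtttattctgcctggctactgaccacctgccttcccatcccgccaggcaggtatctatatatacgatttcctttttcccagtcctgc

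MIXL1: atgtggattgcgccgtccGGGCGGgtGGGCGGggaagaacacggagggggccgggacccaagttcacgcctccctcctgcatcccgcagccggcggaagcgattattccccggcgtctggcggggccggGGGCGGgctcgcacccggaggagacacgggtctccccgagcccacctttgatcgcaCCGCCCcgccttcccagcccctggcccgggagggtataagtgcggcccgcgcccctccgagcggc

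The searched letters, on both strands, were the GC box GGGCGG, found before 42.7% of all 34961 starts in the table, the CCAAT box (CCAAT, 32.0%), GATA letters (GATAA, 20.4%), the TATA box (TATAAA, 10.7%), a forkhead site (TGTTTAC, 2.98%), a T-box site (GGTGTGA, 2.77%), the octamer (1.63%) and an HNF4 site (0.326%). PDGFRA held 2 GC boxes and 1 CCAAT box. HHEX held 4 GC boxes, of which 2 overlapped by 2 bases, 1 CCAAT box on the opposite strand and 1 GATA match from 30 to 26 bases before the start. FOXA1 held 2 GC boxes and MIXL1 held 4, and CER1 held none of the searched motifs. CER1 also had the fewest CG pairs, 3 of a median of 11 over all starts, while HHEX had 38, MIXL1 30, FOXA1 26 and PDGFRA 25. All 250 bases of CER1 and MIXL1 lay in a region of both libraries. Of the PDGFRA bases, 250 were covered in hTBLC and 110 in primed, of the HHEX bases 152 in hTBLC and 0 in primed, and of the FOXA1 bases 0 in hTBLC and 156 in primed.

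Over the 9 genes, hTBLC cells had more regions of their own than primed cells. There were 43 hTBLC-only regions, 32.1% of the hTBLC regions near these genes, and 24 primed-only regions, 21.1% of the primed regions. Near all protein-coding genes these shares were 35.9% for hTBLC and 37.1% for primed. The share of hTBLC regions found in hTBLC alone was therefore close to the background, and the share of primed regions found in primed alone lay below it. Of the 67 regions found in 1 library, 64.2% (Wilson 95% interval 52.2 to 74.6) were hTBLC-only, against 48.9% near all protein-coding genes. The interval covers counting error only and treats neighbouring regions as independent, so it is no test of the difference. Leaving out 1 gene at a time gave shares from 60.7% (48.1 to 71.9) without PDGFRA to 67.2% without FOXA1.

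**Figure D1:**
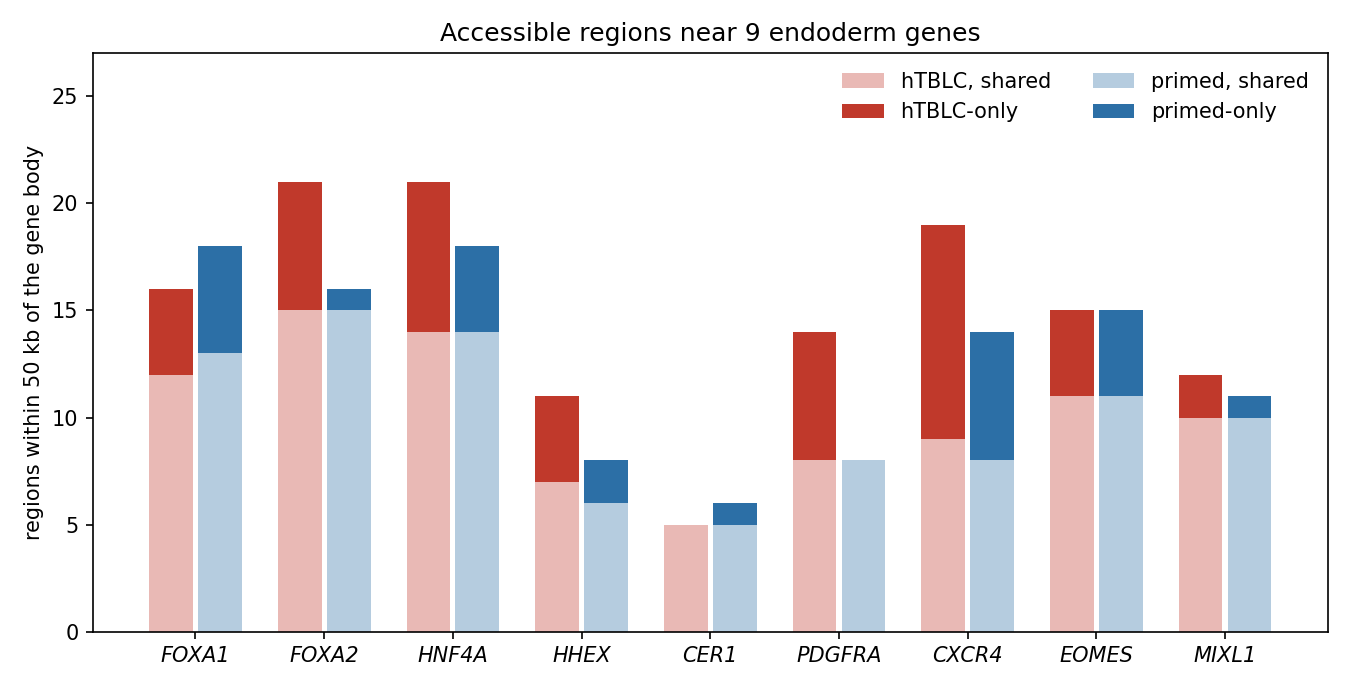
Regions within 50 kb of each gene body (vertical axis, number of regions), with hTBLC in red on the left and primed in blue on the right of each pair. Pale parts are regions that touch a region of the other library and dark parts are regions of 1 library alone. PDGFRA shows the largest gap, with 6 regions of hTBLC alone and 0 of primed alone, and CXCR4 the most regions of 1 library, 10 and 6.

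Gene by gene, hTBLC-only regions outnumbered primed-only regions at 6 of the 9 genes, where 33.4% of all protein-coding genes had this direction. With both lists held to −log10 q values of 5 or more, it was 3 of the 9, with 3 in the other direction and 3 equal, and FOXA2, HNF4A and CXCR4 had no excess. The counts were 6 and 0 at PDGFRA, 6 and 1 at FOXA2, and 10 and 6 at CXCR4. HNF4A had 7 and 4, HHEX 4 and 2, and MIXL1 2 and 1. EOMES had equal numbers, 4 and 4. FOXA1, with 4 and 5, and CER1, with 0 and 1, had more primed-only regions, the direction of 52.1% of all protein-coding genes. An excess of 6 or more hTBLC-only regions, as at PDGFRA, was present at 5.67% of all genes. The windows ran from 103.4 to 178.9 kb, and per 100 kb FOXA2 had the most hTBLC regions of the 9, 20.1 against 15.3 primed regions, and CER1 the fewest, 4.74 against 5.69.

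Most of the regions found in 1 library lay away from the starts of their own genes. Of the 43 hTBLC-only regions, 36 were outside the gene body and further than 1 kb from a start of that gene, as were 19 of the 24 primed-only regions. Most shared regions lay there too, 68 in hTBLC and 66 in primed. Starts of other genes were not counted here. Some library-only regions lay within 1 kb of one, as at LINC02283, LNCNEF, LINC00261 and LINC02084. The median pileup was 16 over all hTBLC-only and 14 over all primed-only regions near the 9 genes, against 12 over all library-only regions of each list. Of all 134 hTBLC regions near the 9 genes, 10 were hTBLC-only with a −log10 q of at least 10. Of all 114 primed regions, 1 was primed-only at this level. Near all protein-coding genes, such regions made up 4.38% of all hTBLC regions and 5.63% of all primed regions, shared ones included. A region of the other library lay within 500 bp of 8 hTBLC-only and 6 primed-only regions.

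At the 8 genes with a start in the promoter table, a region lay within 1 kb of a start in both libraries at 7 genes and in hTBLC alone at 1, HNF4A. Over 15811 protein-coding genes with a start in the table, 79.3% had such a region in both libraries, 2.25% in hTBLC alone and 2.90% in primed alone. FOXA2 had no start in the table, and both ends of its gene body were examined. The strongest regions at the start overlapped between the libraries at 5 genes, and the interval of their ratio lay above 1 at PDGFRA, below 1 at CER1 and included 1 at HHEX, EOMES and MIXL1. Over all genes with such a ratio, the interval lay above 1 at 17.6% and below 1 at 13.6%.

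**Figure D2:**
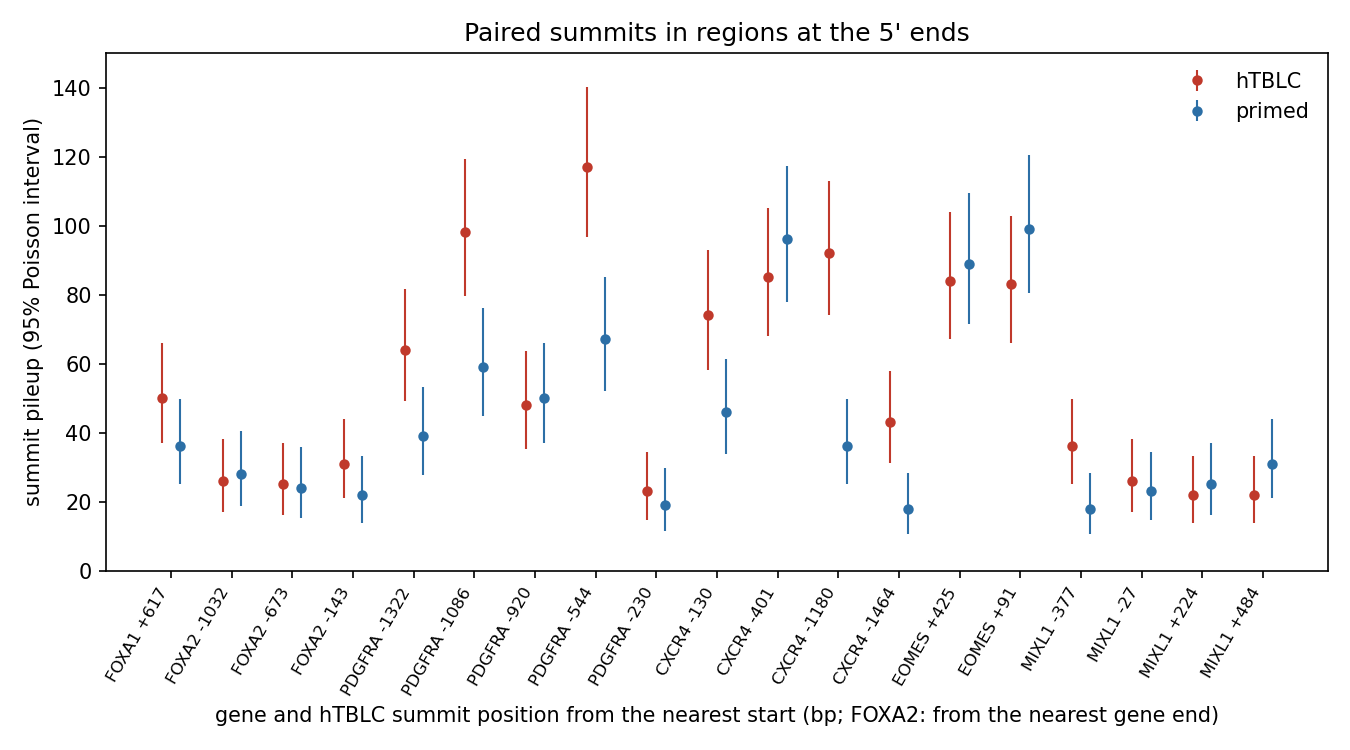
Summit pileups (vertical axis, number of reads or fragments) at the summits of the 2 libraries that lay within 100 bp of each other in regions near the starts, hTBLC in red on the left and primed in blue on the right, with 95% Poisson intervals. Numbers under the axis give the position of the hTBLC summit from the nearest start in bp, negative for positions before the start, and for FOXA2 the distance from the nearest gene end along the coordinate. PDGFRA at −544 bp had 117 in hTBLC and 67 in primed, and CXCR4 at −1180 bp had 92 and 36. CER1, HHEX and HNF4A had no summits paired within 100 bp and are not shown. Among them is the CER1 start, lower in hTBLC, with 69 against 113 in primed.

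PDGFRA, the receptor for platelet-derived growth factors and an early marker of the primitive endoderm in mouse, had higher signal in hTBLC at every matched region from 11562 bp before its first start to its inner start. PDGFRA occupies chromosome 4 from 54229293 to 54298245 on the plus strand. At the inner start, whose preceding bases are shown above, the region had a pileup of 117 (96.8 to 140) in hTBLC and 67 (51.9 to 85.1) in primed, a ratio of 1.60 (1.17 to 2.19). Its summit lay 544 bp before that start in hTBLC and 538 bp before it in primed. The other summit of this region, 920 bp before the start in hTBLC and 922 bp in primed, did not share the difference, with pileups of 48 and 50 and a ratio of 0.88 (0.58 to 1.33). A weak summit in the sequence shown above, 230 bp before the inner start in hTBLC and 250 bp in primed, had pileups of 23 and 19.

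Before the first start of PDGFRA, 3 regions lay close together. Their pileups were 98 in hTBLC and 59 in primed at 1086 bp before the start, 63 and 25 at 1815 bp, and 49 and 23 at 2288 bp. The ratios were 1.52 (1.09 to 2.13), 2.30 (1.43 to 3.82) and 1.95 (1.16 to 3.35). The local background was also higher here in hTBLC, 15.1 against 10.4 at the strongest of the 3. A region 11562 bp before the start had pileups of 67 in hTBLC and 36 in primed, a ratio of 1.70 (1.12 to 2.63). Further into the gene the intervals included 1: the region 43140 bp after the inner start had 33 in hTBLC and 32 in primed, and that at 20896 bp had 18 and 12. Beyond the gene, 24801 bp from its end, the order was the other way, with 34 in hTBLC and 57 in primed and a ratio of 0.55 (0.35 to 0.85).

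The 6 hTBLC-only regions of PDGFRA lay on both sides of the gene and none inside it. Before the gene, they were 31813 bp and 25990 bp from the first start, with pileups of 26 (17.0 to 38.1) and 13 (6.92 to 22.2). The others lay 20836 to 39203 bp beyond the gene end, with pileups of 15, 31, 16 and 12. The strongest of these, at 54332499 to 54333022, had a fold enrichment of 9.30 and lay within 1 kb of a start of the long non-coding RNA gene LINC02283. Of 9 genes tied as most like PDGFRA in their counts, the 3 with the nearest ratio at the start were GIMD1, with 7 hTBLC-only and 0 primed-only regions, NTMT2 with 7 and 0, and PDPN with 5 and 0. Each had 8 shared hTBLC regions and a start region in both libraries, as PDGFRA did. Likeness was the Euclidean distance over the counts of hTBLC-only, primed-only and shared regions in the 2 libraries, and all 9 lay at a distance of 1. Of the 8 with a ratio at the start, 6 were above 1 and 2 below, down to 0.69 (0.52 to 0.91) at ZFYVE26.

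CXCR4, a chemokine receptor that is used to sort definitive endoderm, had a main start region whose interval included 1 and a flank with higher signal in hTBLC. It occupies chromosome 2 from 136114349 to 136118149 on the minus strand and has 3 starts in the table. Its start region had a highest summit of 85 (67.9 to 105) in hTBLC and 96 (77.8 to 117) in primed, a ratio of 0.81 (0.60 to 1.095). A summit nearer to the starts in the same region had 74 in hTBLC and 46 in primed, a ratio of 1.47 (1.004 to 2.17). The neighbouring region, 1180 bp before the most upstream start, had 92 (74.2 to 113) in hTBLC and 36 in primed, a ratio of 2.34 (1.57 to 3.54). Within hTBLC the pileups of these regions, 92 and 85, have overlapping intervals, so their order is not settled. No region lay within 1 kb of the third start, inside the gene, in either library.

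An hTBLC-only region lay 1827 bp beyond the 3′ end of CXCR4, at 136112361 to 136112932. It had a pileup of 51 (38.0 to 67.1) and a fold enrichment of 8.81, and the nearest primed region was 402 bp away with a pileup of 13. A pair of regions at the far upstream side was higher in hTBLC, with 63 and 19 at 46399 bp before the start and 50 and 10 at 50676 bp. Their ratios were 3.03 (1.79 to 5.36) and 4.57 (2.29 to 10.1). The local background at the first of them was 7.08 in hTBLC and 2.28 in primed, and its part in the ratio was not tested. On the other side, 48609 bp beyond the gene, the pileups were 34 in hTBLC and 14 in primed, a ratio of 2.22 (1.16 to 4.48). The primed-only regions of CXCR4 were weak, with pileups of 8 to 17. So were its hTBLC-only regions other than the one of 51, with pileups of 8 to 23.

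**Figure D3:**
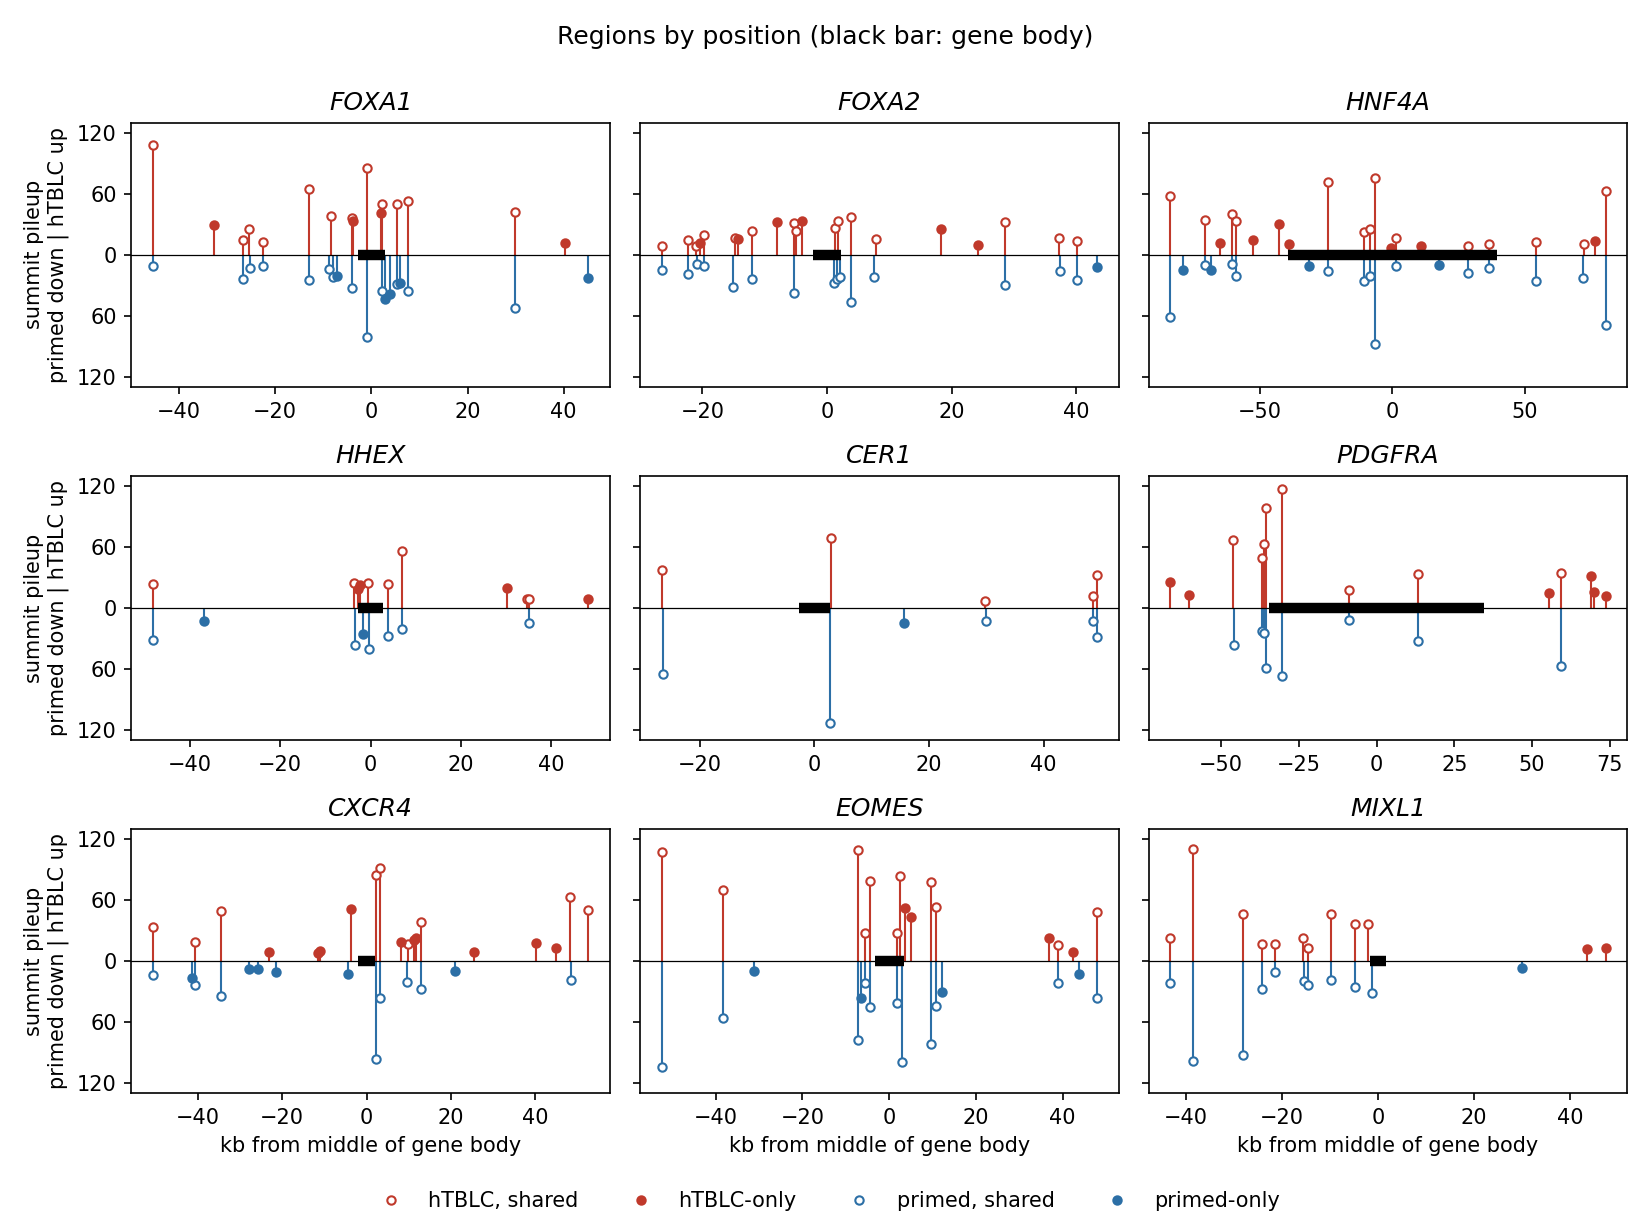
Summit pileup of each region within 50 kb (vertical axis, hTBLC upward in red, primed downward in blue) against the distance of its summit from the middle of the gene body in kb, in the direction of increasing coordinate. The black bar is the gene body, filled points are regions of 1 library alone and open points are shared. FOXA1 shows a region at the left edge with 108 in hTBLC and 11 in primed.

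EOMES, a T-box factor that in mouse drives definitive endoderm, was strongly open in both states, and none of its 9 matched regions passed 2-fold. EOMES is encoded on chromosome 3 at 27715953 to 27722713 on the minus strand. Its start region had 84 (67.0 to 104) in hTBLC and 99 (80.5 to 121) in primed, a ratio of 0.78 (0.57 to 1.05). In hTBLC this region ran on further before the start, to 27722841 against 27722548 in primed. The next region, 752 bp before the start at 27722962 to 27723448, was called in hTBLC alone with a pileup of 52. Its fold enrichment was 3.24, over a local background of 15.4, and the nearest primed region was 414 bp away.

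Several shared regions of EOMES were among the strongest of the 9 genes. The region 10073 bp after the start, beyond the end of the gene and near a start of LINC02084, had 109 in hTBLC and 78 in primed, a ratio of 1.28 (0.95 to 1.73). Beside it, 90 bp from the nearest hTBLC region, primed had a region of its own with a pileup of 36. The region at 55399 bp had 107 and 104. At 7346 bp after the start the pileups were 79 in hTBLC and 45 in primed, and at 1.60 (1.099 to 2.37) this was the 1 matched region of EOMES whose interval lay outside 1. Regions before the start, at 6664 bp with 78 in hTBLC and 81 in primed and at 7851 bp with 53 and 44, did not separate. The region of hTBLC alone with the highest fold enrichment, 7.27, lay 33919 bp before the start and had a pileup of 23.

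MIXL1, a paired-type homeobox factor of the primitive streak, had a shared start region with several summits and a ratio whose interval included 1. MIXL1 is encoded on chromosome 1 at 226223664 to 226227060 on the plus strand. The strongest summit of the region had 36 (25.2 to 49.8) in hTBLC and 31 (21.1 to 44.0) in primed, a ratio of 1.06 (0.64 to 1.77). It lay 377 bp before the start in hTBLC and 505 bp after it in primed, although the intervals of the summits within a library overlap. Compared summit by summit, the pileups were 36 in hTBLC and 18 in primed before the start, a ratio of 1.83 (1.01 to 3.42), 26 and 23 next to it, 22 and 25 at 224 bp after it, and 22 and 31 at 484 bp, a ratio of 0.65 (0.36 to 1.16). The ratio thus fell along the region, with intervals that overlap and only the first of which excluded 1. The pairing distance of 100 bp was chosen after the values were seen.

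Away from its start, MIXL1 had regions that moved in both directions. At 8112 bp before the start the pileups were 46 in hTBLC and 19 in primed, a ratio of 2.21 (1.27 to 4.00). At 26468 bp before the start they were 46 (33.7 to 61.4) in hTBLC and 92 in primed, a ratio of 0.46 (0.31 to 0.66). Its library-only regions were weak, with pileups of 13 and 12 in hTBLC and 7 in primed. The strongest region of the window lay at the start of the neighbouring gene ACBD3, with 110 in hTBLC and 98 in primed.

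CER1, a secreted antagonist of NODAL, BMP and WNT signals, had a less open start in hTBLC. CER1 is encoded on chromosome 9 at 14717326 to 14722733 on the minus strand. Its start region had a pileup of 69 (53.7 to 87.3) in hTBLC and 113 (93.1 to 136) in primed, a ratio of 0.56 (0.41 to 0.76). Unscaled, the ratio was 0.61 (0.45 to 0.83). The summit lay 149 bp before the start in hTBLC and 41 bp before it in primed, and both positions fall in the sequence shown above. In hTBLC a further summit of 56 lay 86 bp after the start. CER1 had the fewest regions of the 9 genes, and at 4 of its 5 matched regions the ratio was below 1. One of these, with 37 in hTBLC and 65 in primed and a ratio of 0.52 (0.34 to 0.79), lay at a start of the neighbouring gene ZDHHC21. The only primed-only region, 12902 bp before the start, had a pileup of 15.

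HHEX, a homeobox factor of the anterior endoderm and liver bud, had a start that was covered by a region in hTBLC and not in primed, while the main region before the start was shared. HHEX is encoded on chromosome 10 at 92689955 to 92695647 on the plus strand. The shared region had its summit 777 bp before the start with 25 (16.2 to 36.9) in hTBLC and 550 bp before it with 36 (25.2 to 49.8) in primed, a ratio of 0.63 (0.37 to 1.09). The hTBLC-only region over the start, at 92689803 to 92690051, had a pileup of 19 (11.4 to 29.7) and a fold enrichment of 3.31. A second one, 568 bp after the start, had 23, and its nearest primed region was 302 bp away. In primed, a region 1264 bp after the start was called with a pileup of 26. Along this stretch the regions of 1 library alone lay at different places in the 2 lists, and the reason was not tested. The largest ratio at a matched region lay 9818 bp after the start, beyond the 3′ end, with 56 (42.3 to 72.7) in hTBLC and 21 in primed, a ratio of 2.44 (1.45 to 4.24). Inside the gene, 2361 bp after the start, the order was the other way, with 25 in hTBLC and 40 in primed. The ratio there was 0.57 (0.33 to 0.97). Matched regions of HHEX had a median log2 ratio of −0.50.

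FOXA1, a forkhead gene, had its largest ratios away from the start, and most regions called at its start were of 1 library alone. FOXA1 lies on chromosome 14 at 37589552 to 37595249 on the minus strand, with the neighbouring gene TTC6 starting close to it. Around its start the local background was high, from 13.5 to 15.02, and 1 of the called regions was shared. In hTBLC, regions with pileups of 50 and 41 lay 617 bp and 874 bp after the start. In primed, regions with pileups of 43 and 38 had summits 36 bp and 961 bp before the start, and the first covered part of the sequence shown above. The hTBLC region at 617 bp was the shared one, with its primed summit at 588 bp, and had 50 in hTBLC and 36 in primed, a ratio of 1.27 (0.81 to 2.01). Inside the gene, 3762 bp after the start, the libraries were level, with 85 in hTBLC and 81 in primed and a ratio of 0.96 (0.70 to 1.32).

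The largest ratio near any of the 9 genes was at a region 42545 bp beyond the 3′ end of FOXA1, on chromosome 14 at 37546639 to 37547180. Its pileup was 108 (88.6 to 130) in hTBLC and 11 in primed, a ratio of 8.98 (4.82 to 18.5). The fold enrichment in hTBLC was 23.5, the highest of the 134 hTBLC regions. A second region, 10046 bp beyond the end, had 65 in hTBLC and 25 in primed, a ratio of 2.38 (1.48 to 3.94). Between them, 29906 bp beyond the end, lay a region of hTBLC alone, with a fold enrichment of 10.1 and a pileup of 29. On the other side of the gene, 42307 bp before the start, lay the strongest primed-only region by fold enrichment near the 9 genes, with a pileup of 23 and a fold enrichment of 8.60.

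FOXA2 lies on chromosome 20 at 22580998 to 22585490. No region lay within 1 kb of the lower end of the gene body. At the higher end, paired summits had 26, 25 and 31 in hTBLC and 28, 24 and 22 in primed, with ratios from 0.85 to 1.29 and intervals that all included 1. Matched regions of FOXA2 had a median log2 ratio of −0.34, below the −0.13 of all protein-coding genes. The 1 that passed 2-fold had 17 in hTBLC and 32 in primed, a ratio of 0.49 (0.25 to 0.90). Its library-only regions went the other way, with 6 in hTBLC and 1 in primed. By fold enrichment, 8.79, the first of the hTBLC-only regions lay 16106 bp from the higher end with a pileup of 25. A weak one with a pileup of 10 lay near a start of LNCNEF. Regions near the start of the adjacent long non-coding RNA gene LINC00261 were shared, except 1 hTBLC-only region with a pileup of 33.

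HNF4A, the nuclear receptor, had little signal at either start and several regions with over 3 times the signal in hTBLC. HNF4A is encoded on chromosome 20 at 44355699 to 44434596 on the plus strand, with starts at 44355699 and 44401239. The 1 region near the first start, at 44355936 to 44356135, was called in hTBLC alone at a pileup of 11 (5.49 to 19.7) and a −log10 q of 2.87, and its summit lay 328 bp after the start. It was lost when a −log10 q of at least 5 was required. No region lay within 1 kb of the second start in either library. Inside the gene, 15087 bp after the first start, the pileup was 72 (56.3 to 90.7) in hTBLC and 16 in primed, a ratio of 4.11 (2.37 to 7.58). Before the gene, ratios were 4.06 (1.94 to 9.52) at 21195 bp, with 40 in hTBLC and 9 in primed, and 3.11 (1.501 to 7.05) at 31205 bp, with 34 and 10. The region of hTBLC alone with the highest fold enrichment, 8.56, lay 3456 bp before the first start with a pileup of 30. The next, 13262 bp before it, had a pileup of 15.

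Other regions of HNF4A did not follow this direction. The strongest intronic region, 12566 bp before the second start, had 76 in hTBLC and 88 in primed, a ratio of 0.79 (0.57 to 1.09). Regions at the start of FITM2, with 58 in hTBLC and 61 in primed, and of R3HDML, with 33 and 21, had intervals that included 1, as did that near HNF4A-AS1, with 17 and 11. Beyond the 3′ end, regions at 14797 bp and 33227 bp had 13 and 11 in hTBLC and 26 and 23 in primed, with ratios of 0.46 (0.22 to 0.92) and 0.44 (0.19 to 0.93).

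Over the 83 regions matched 1 to 1 near the 9 genes, the scaled log2 ratio had a median of −0.04 and quartiles of −0.44 and 0.51. Over 103673 matched regions near all protein-coding genes the median was −0.13 and the quartiles were −0.64 and 0.33. A ratio of at least 2 with an interval above 1 was found at 12 of the 83 regions, or 14.5%, at 6 genes, against 5.92% near all protein-coding genes. A ratio of at most 0.5 with an interval below 1 was found at 4 of the 83, or 4.82%, at FOXA2, HNF4A and MIXL1, against 12.3%. A ratio of at least 4 with an interval above 1 was found at 4 of the 83, 1 near FOXA1, 2 near HNF4A and 1 near CXCR4. Near all protein-coding genes this share was 0.695%. Of the 12 regions with a ratio of at least 2, 1 lay within 1 kb of a start of its gene, the CXCR4 region, and 0 lay within 1 kb of a start of another gene. CXCR4 contributed 4 and HNF4A 3. By gene, the median log2 ratio ran from −0.84 at CER1 to 0.64 at PDGFRA.

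**Figure D4:**
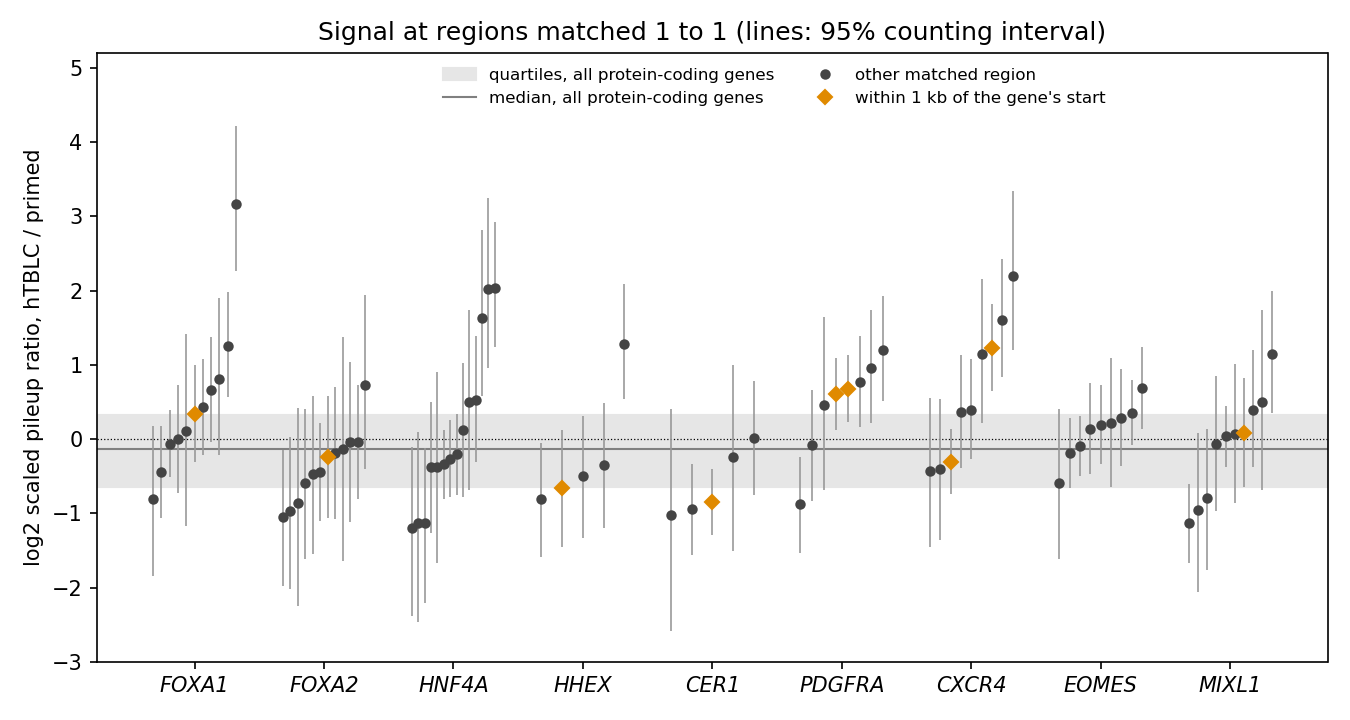
Scaled log2 ratio of hTBLC to primed pileup (vertical axis) at each matched region of the 9 genes, ordered within a gene, with 95% intervals for counting error. Orange diamonds are regions within 1 kb of a start of the gene (of either gene end for FOXA2), dark points all others, and the grey band and line are the quartiles and median near all protein-coding genes. The single point above 3 is the FOXA1 region with 108 in hTBLC and 11 in primed, and CER1 lies at or below 0.01.

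A list of 22 further endoderm genes was examined by the same steps. Near these genes 35.0% of the hTBLC regions were hTBLC-only and 33.5% of the primed regions were primed-only, both close to the shares near all protein-coding genes, and 52.1% (46.3 to 57.8) of the library-only regions were hTBLC-only, an interval that overlaps that of the 9 genes. The difference between the lists was not tested. More hTBLC-only regions were present at 12 genes, more primed-only regions at 7 and equal numbers at 3. Matched regions passed 2-fold upward at 16 of 245 and downward at 27 of 245. COL4A1 and COL4A2, basement membrane collagens, lie next to each other and share a start region and part of their regions. Regions of hTBLC alone exceeded those of primed alone most at LAMB1, a laminin chain of basement membranes, with 9 and 3, and PROX1, a homeobox factor of liver and lymphatic cells, with 10 and 4. The opposite balance was greatest at GSC, a homeobox factor of the streak, with 1 hTBLC-only and 8 primed-only, and GATA4, a zinc finger factor of endoderm and heart, with 8 and 15.

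At the starts of these 22 genes, 13 had a region in both libraries, 1, the fetal serum protein gene AFP, in neither, and 8 had no start in the table. Over all protein-coding genes with a start, 79.3% had a region in both. Of 10 with a ratio at the start, 0 had an interval above 1. An interval below 1 was found at 2, both with a ratio of at most 0.5. Over all genes with such a ratio, 17.6% had an interval above 1 and 13.6% below 1. NODAL, the ligand upstream of endoderm formation, had 28 in hTBLC and 81 in primed, a ratio of 0.32 (0.20 to 0.49). OTX2, a homeobox factor of epiblast and anterior tissue, had 24 in hTBLC and 44 in primed, a ratio of 0.50 (0.29 to 0.84). The median log2 ratio of the 10 starts was −0.30, against 0.03 over all genes with a ratio at the start.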

How the data were processed

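Alignment to hg38 and peak calling are known from the submitters' processing notes, which name Bowtie2, Picard and MACS2 without versions. Read shifting and duplicate handling are not stated. Each library has its own deposited peak list with positions, summit offsets, a fold ratio over local background, and −log10 p and q values. Pileup and background were solved as the whole pileup whose deposited fold (pileup plus 1 over background plus 1) and Poisson −log10 p-value fit within 0.001, for 99.998% of hTBLC and 99.999% of primed peaks. The most frequent background, 1.96 and 1.79, stood for relative depth, as read totals were not analysed here. Touching peaks were joined on chromosomes 1 to 22 and X. An overlap of 1 bp made regions shared, and ratios used regions matched 1 to 1, or the strongest overlapping regions at a start. Gene positions, starts and sequences came from RefSeq tables of GRCh38.p14. Python 3.11.15, numpy 2.4.6, pandas 2.3.3 and scipy 1.17.1 were used, and pileups, overlap classes and intervals were checked on simulated data.

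Members, lists and the naming rule were chosen with earlier results of these data known. The rule takes start regions, the 2 library-only regions of highest fold per library, matched regions past 2-fold with an interval that excludes 1, and neighbouring starts that hold a region. Weak regions under it are given as counts or ranges, and some other regions and the paired summits were chosen after their values were seen. Other thresholds, overlaps, distances and scaling were tried.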

Additional observations from a re-analysis of the deposited data

How the results depend on the processing

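No paired analysis was possible because each group has 1 library with no replicate. The hTBLC-only share of library-only regions near the 9 genes, 64.2% in the text, ran from 55.4% with both lists held to −log10 q values of 5 or more to 88.9% of 18 regions with the top 50000 regions. Near all protein-coding genes the same settings gave 43.1% and 48.1%. Counts of hTBLC-only and primed-only regions moved to 27 and 14 with −log10 q held to 10 or more, 16 and 2 with the top 50000 regions, 18 and 10 within 10 kb, and 141 and 103 within 200 kb, and primed-only regions numbered 41 with reciprocal overlap of at least 50%. The number of genes with more hTBLC-only regions, 6 in the text, was 3 for a −log10 q of 5 or more and 4 to 7 in the other settings. The median log2 ratio was 0.09 without scaling, against 0.00 for all protein-coding genes. The excess at single genes is less stable. At FOXA1, −1 in the text turned to 3 for a −log10 q of 5 or more, 4 for 10 or more, 2 with the top 50000 regions and 8 within 200 kb. HHEX, at 2, turned to −1 for 5 or more and to −1 within 200 kb, FOXA2, at 5, to −3 for 10 or more, and MIXL1, at 1, to −4 within 200 kb. The cause was not tested. PDGFRA kept an excess of 2 to 10 in all settings except 10 kb, where it was 0. With a window of 500 bp FOXA1 had a start region in primed alone, and the number of genes with one in both libraries was 6, against 7. Depth limits regions of low pileup, whose intervals span several fold.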
